A study of Mus musculus with 6 samples.

Results

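The glutathione and thioredoxin antioxidant genes are the enzymes with which a cell disposes of hydrogen peroxide, lipid peroxides and reactive electrophiles. They were chosen by symbol: every gene starting with Gst, Mgst, Prdx or Txnrd, or with Gpx and a digit, and Gclc, Gclm, Gss, Gsr, Ggt1, Ggt5, Txn1, Txn2, Cat, Sod1, Sod2, Hmox1, Nqo1 and Srxn1. The symbols took in 60 of the 27179 genes listed, of which 9 were at 0 in every library and 7 more had a mean under 0.5 RPKM (reads scaled by gene length and by library size). The other 44 are described here. They come from leukemia-initiating cells (LICs) of C57BL/6 mice, given as 8 weeks old, sorted from bone marrow as YFP+Mac-1+c-Kit+ cells with 3 sequencing libraries for each of the labels WT and Asic3-null. The latter stands for loss of both Asic3 alleles, and Asic3 encodes an acid-sensing ion channel. Below, null-labelled and WT-labelled name the libraries by these labels. The leukemia of both groups was started by a retrovirus carrying the fusion oncogene MLL-AF9 and YFP in Lin- fetal liver cells, which were then grown in irradiated recipient mice, so the cells are virus-driven and the host keeps its own tissue.

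The labels could not be checked in the usual way. Asic3 had 9.12, 4.11 and 6.58 RPKM in the null-labelled libraries and 1.22, 1.85 and 0.435 RPKM in the WT-labelled ones, which runs against the labels. The gene Cdk5 overlaps it in position. Cdk5 had 21.8, 21.4 and 23.4 RPKM against 25.2, 16.5 and 19.3 RPKM, so its values did not separate the labels. The part of Cdk5 reads in the Asic3 values was not tested. There are no values per exon to show whether the deleted part was read. Meis1, a homeobox gene needed by MLL-AF9 leukemia and one that the study examined, had 21.7, 28.2 and 35.3 RPKM against 14.2, 14.9 and 14.0 RPKM, higher without overlap (log2 fold change 0.91, adjusted p = 0.0367 by limma). Hoxa9, another homeobox gene of this leukemia, had 67.1, 42.3 and 48.9 RPKM against 73.5, 73.5 and 87.8 RPKM, lower without overlap and not called (log2 fold change -0.58, adjusted p = 0.151 by limma). Neither gene shows which libraries carry the deletion, and all directions below are given by label. Xist was at 46.5 to 71.9 RPKM in the null-labelled libraries and at most 0.0573 RPKM in the WT-labelled ones, and 4 Y-linked genes summed to 0 against 81.4 to 118.2 RPKM, so the sex of the cells and the genotype label cannot be told apart. Depth was low, between 1947168 and 2381861 reads per library as inferred from the RPKM values, and the 44 genes had a median of 74.2 reads per library. Of the cell type markers, all 12 listed genes of maturing neutrophils, among them the granule proteins Camp, Ltf, Ngp and Lcn2 and the cytosolic S100a8 and S100a9, were called lower in the null-labelled libraries. They summed to between 326 and 512 RPKM there and to between 4393 and 5344 RPKM in the WT-labelled ones, and without S100a8 and S100a9 to between 244 and 340 RPKM and to between 2222 and 3143 RPKM. Itgam, which encodes the sorting marker Mac-1, had 12.9, 12.3 and 16.9 RPKM against 89.5, 85.7 and 55.1 RPKM and was called lower, whereas Kit, the other sorting marker, was at 14.4, 17.9 and 20.4 RPKM against 9.09, 15.3 and 8.97 RPKM with overlap. Of the lymphoid markers, Cd3e and Ms4a1 were at 0 in every library, whereas Cd79b at 37.3 to 49.0 RPKM and Nkg7 at 7.44 to 19.0 RPKM were present, overlapped and were not called. Of the platelet markers, Pf4 and Ppbp were at 0, Gp1bb was called lower at 0.62, 0.81 and 2.04 RPKM against 8.90, 4.43 and 5.47 RPKM, and Itga2b was at 10.4 to 22.0 RPKM against 5.65 to 10.8 RPKM and was not called. The 9 listed genes of eosinophils, basophils and mast cells summed to between 140 and 144 RPKM against 83.5 to 208 RPKM. The groups overlapped, and none of the 5 tested genes of that list was called.

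As background, glutathione is a small thiol made by glutamate-cysteine ligase and glutathione synthetase. Glutathione peroxidases use it to reduce peroxides, glutathione S-transferases join it to electrophiles, and glutathione reductase returns its oxidized form with electrons from NADPH. Thioredoxins, recharged by thioredoxin reductases from the same NADPH, feed the peroxiredoxins, which also reduce peroxides. Many of these genes are targets of the transcription factor NRF2, which the protein KEAP1 holds in check. Granulocytes and their precursors make reactive oxygen species by design and also hold many of these enzymes.

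Of the 44 genes, 42 had a mean of at least 1 RPKM and were tested with all 12037 such genes by limma on log2(RPKM + 1). A gene was called at an adjusted p under 0.05. The 6 called genes, Hmox1, Gstp3, Gpx3, Mgst1, Mgst2 and Prdx5, were all lower in the null-labelled libraries, and none was called higher. With any 1 library left out, 2 to 4 members were called, the fewest without WT replicate 1. The 6 make up 14.3% of the tested members, where 3.35% of all tested genes were called (2.82% as lower, 0.523% as higher). At an unadjusted p under 0.05 there were 12 of the 42, 4 higher and 8 lower, beside 15.9% of all tested genes. The values of the labelled groups did not overlap for 11 of the 42, 9 lower and 2 higher, beside 22.6% of all tested genes. The other 36 genes were not called, and their log2 fold changes ran from -1.004 to 0.86. The median log2 fold change of the 42 was -0.013, beside 0.034 over all tested genes, and 23 of them lay within 0.2 of 0.

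**Figure D1:**
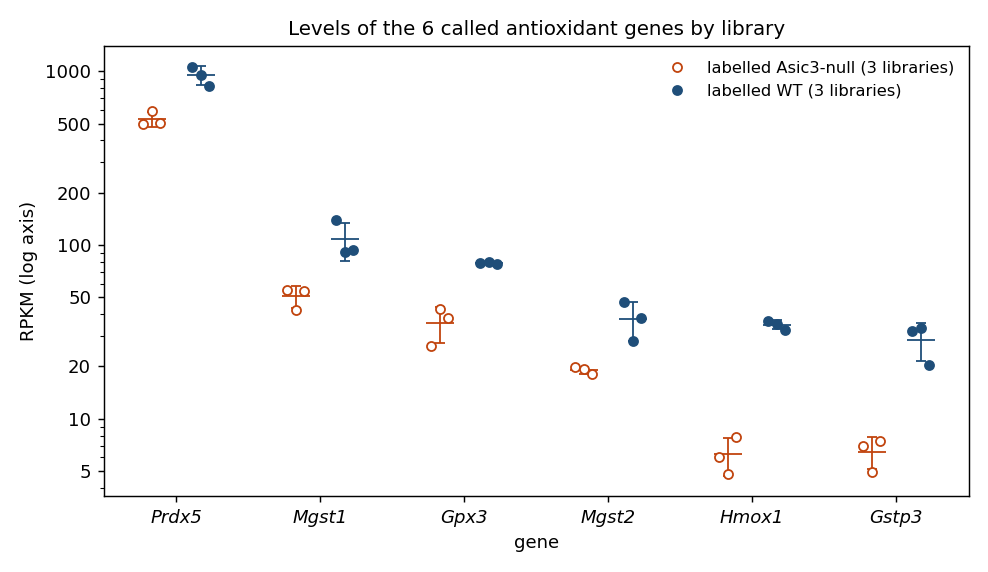
RPKM (log axis) of the 6 called antioxidant genes in each library. Open points are the 3 null-labelled libraries and filled points the 3 WT-labelled, with the mean as a bar and the SD as whiskers; every open point lies below every filled point of its gene.

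Promoter sequence is shown for the called genes, which were all lower in the null-labelled libraries. Whether they vary together or share regulation was not tested. RefSeq for GRCm38.p6 gave the 250 bases before a start for 36 of the 44 genes. It did so for 5 of the 6 called genes, and Hmox1 is not among them. For Mgst2, which spans 51636912 to 51682675, the only window lies before a start inside the gene. The bases before the outer end of Mgst2 were not examined. Stretches of at least 100 bases free of annotated exons remained for Gpx3 (chr11:54902604-54902771, plus strand), Gstp3 (chr19:4059570-4059697, minus strand) and Mgst2 (chr3:51660929-51661177, plus strand). They are given 5′ to 3′, with capitals for matches to GAGGAA, the core of PU.1 sites, or to TTGCNNAA, found in C/EBP sites, on either strand. PU.1 and C/EBP are transcription factors of the myeloid lineage.
Gpx3: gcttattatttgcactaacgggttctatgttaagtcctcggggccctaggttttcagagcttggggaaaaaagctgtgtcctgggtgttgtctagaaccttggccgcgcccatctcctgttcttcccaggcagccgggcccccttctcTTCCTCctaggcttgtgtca
Gstp3: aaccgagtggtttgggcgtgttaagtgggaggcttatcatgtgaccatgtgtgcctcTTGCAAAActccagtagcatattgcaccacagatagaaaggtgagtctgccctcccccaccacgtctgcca
Mgst2: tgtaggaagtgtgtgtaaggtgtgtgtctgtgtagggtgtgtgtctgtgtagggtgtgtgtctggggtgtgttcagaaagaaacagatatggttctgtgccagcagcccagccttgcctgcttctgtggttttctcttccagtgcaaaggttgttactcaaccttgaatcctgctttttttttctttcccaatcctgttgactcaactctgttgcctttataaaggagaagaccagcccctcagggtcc
These stretches held 1 match in Gpx3, 1 in Gstp3 and none in Mgst2. Over the full 250 bases, Gpx3 had 2 matches to GAGGAA, and Gstp3 had 1 to each motif. The antioxidant response element TGACNNNGC, bound by NRF2 with small MAF proteins, was found before 1 of the starts of Mgst1, on the reverse strand as GCACGGTCA, its first base 56 bases before the start. The same window held TTGCNNAA, its first base 83 bases before the start, and a window at another start of Mgst1 held GAGGAA, 234 bases before it. The windows of Mgst2, at its internal start only, and of Prdx5 held none of the 3 motifs. The antioxidant response element was also found before starts of Gclm, Gstm5, Gstm7, Prdx1, Sod1 and Txnrd1, none of which was called. In all, 7 of the 36 genes held that element in a window, 4 held TTGCNNAA and 9 held GAGGAA. Genes with several starts have several windows. Counted by window, 14.6%, 8.33% and 18.8% of the 48 windows of these genes held the 3 motifs in that order, beside 10.2%, 9.56% and 23.3% of all 32851 promoter windows of the same length. A match is only a run of letters and not a bound site.

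Among the heme and quinone enzymes, Hmox1 showed the widest difference of all 42 tested genes. It encodes heme oxygenase 1, which opens the heme ring to give biliverdin, carbon monoxide and iron, and it lies on chromosome 8 (75093618 to 75100593, GRCm38). It had 6.03, 4.80 and 7.84 RPKM in the null-labelled libraries and 36.5, 35.2 and 32.4 RPKM in the WT-labelled ones. Every null-labelled library was far below the lowest WT-labelled one. Group means were 6.22 ± 1.53 and 34.7 ± 2.08 RPKM (SD, n = 3 each), 17.9% of the WT level, with a log2 fold change of -2.33 (SE, the standard error, 0.19, adjusted p = 0.000396 by limma). The reads were 22, 18 and 29 against 121, 108 and 121, and Hmox1 was called in all 15 alternative settings. In bulk RNA such as this, fewer cells of one type and less RNA per cell cannot be told apart. The macrophage marker Adgre1 moved with it, at 7.99, 9.57 and 13.4 RPKM against 29.3, 28.5 and 25.1 RPKM, and was called lower. It was the only one of the 4 tested genes of a 12-gene macrophage list to be called. That list summed to between 10.6 and 18.5 RPKM against 30.9 to 35.7 RPKM, while Spic and Timd4 of that list were at 0 and C1qa, C1qc, Mrc1 and Marco stayed under 0.5 RPKM in every library. Vcam1 of the same list had 0.127, 0.865 and 1.63 RPKM against 2.66, 2.72 and 3.48 RPKM, without overlap and not called (adjusted p = 0.137 by limma), and C1qb and Cd163 reached 2.90 and 2.12 RPKM with overlap. The part of these markers and of the neutrophil genes in the difference was not tested.

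Nqo1, the NAD(P)H quinone reductase and a textbook NRF2 target, was barely read. It had 1.39, 0.812 and 0.274 RPKM in the null-labelled libraries and 0.613, 0.993 and 0 RPKM in the WT-labelled ones, from 14 reads in all. At this depth no difference was detectable. Its mean of 0.680 RPKM, and that of Gsta4 at 0.915 RPKM, were the lowest of the 44 genes and under the limit for the test. Ggt5 at 0.462 RPKM and Gsto2 at 0.378 RPKM were the nearest genes under the limit of 0.5.

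The cytosolic and mitochondrial glutathione S-transferases gave 16 genes, of which 15 were tested and 1 was called. Gstp3, a Pi class transferase on chromosome 19 (4057470 to 4059605), had 6.96, 4.92 and 7.48 RPKM in the null-labelled libraries and 32.0, 33.1 and 20.4 RPKM in the WT-labelled ones. The lowest WT value was still well above the highest Asic3-null value. The means of 6.45 ± 1.35 and 28.5 ± 7.03 RPKM (SD, n = 3 each) differed by -1.97 on the log2 scale (SE 0.23, adjusted p = 0.00258 by limma), 22.6% of the WT level. Gstp3 was called in all 15 alternatives, on 8 to 12 reads per null-labelled library and 33 to 46 per WT-labelled library.

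The neighbours of Gstp3 in the Pi class were not called. Gstp1, which lies in the same cluster (4035411 to 4037912), had 75.5, 79.0 and 57.2 RPKM against 59.4, 50.4 and 59.6 RPKM. The groups overlapped, and the log2 fold change was 0.31 (SE 0.16, adjusted p = 0.381 by limma). Gstp-ps, a Pi class pseudogene within Traf5 on chromosome 1, had 46.8, 55.4 and 46.7 RPKM against 39.0, 32.8 and 41.1 RPKM without overlap, and was not called (log2 fold change 0.39, adjusted p = 0.230 by limma). Gstp2 stayed between 0.574 and 1.70 RPKM in all libraries. These copies are close to one another: of the 50-base windows in the transcripts of Gstp-ps, 71.1% also occur in Gstp2, as do 33.7% of those of Gstp1, so the split of reads between the 3 genes is uncertain. Summed, they had 122.8, 136.1 and 105.7 RPKM against 99.7, 84.6 and 101.8 RPKM, every null-labelled library above every WT-labelled library. Gstp3 shares no such window with any other gene of the family.

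The Mu class genes lie side by side on chromosome 3, and their values differed from gene to gene. Gstm1, the most abundant of them, had 111, 151 and 150 RPKM against 116, 185 and 137 RPKM with overlap. Gstm2 had 2.06, 3.21 and 3.25 RPKM against 1.36, 1.47 and 0.807 RPKM, without overlap but from 29 reads in all (log2 fold change 0.79, adjusted p = 0.205 by limma). Gstm5, for which only the WT replicate 1 value lay within the range of the other group, had 14.7, 25.3 and 20.1 RPKM against 17.2, 6.76 and 9.27 RPKM (log2 fold change 0.86, adjusted p = 0.230 by limma). Gstm4 and Gstm7 had log2 fold changes of 0.11 and 0.04.

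Gstk1, the Kappa class enzyme of mitochondria and peroxisomes, came closest to being called among the rest. It had 2.32, 2.71 and 1.37 RPKM in the null-labelled libraries and 6.14, 4.97 and 4.54 RPKM in the WT-labelled ones, with no overlap. The log2 fold change was -1.004 (SE 0.25, adjusted p = 0.0752 by limma) on 45 reads in all, and it was called in none of 14 alternatives. Gsto1, an Omega class enzyme and the most abundant of all the transferases, had 257, 283 and 237 RPKM against 235, 248 and 264 RPKM, and its log2 fold change was 0.05 (SE 0.12). Gstcd had 16.2, 16.02 and 19.2 RPKM against 9.80, 14.1 and 16.8 RPKM with overlap, and its span runs 185 bases into Ints12. The log2 fold changes of Gstt2, Gstt3 and Gstz1 lay between -0.33 and 0.05.

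The microsomal transferases are membrane proteins, some of which also act on leukotrienes and lipid peroxides, and 2 of the 3 were called lower. Mgst1, on chromosome 6 (138140527 to 138156755), had 55.0, 42.3 and 54.6 RPKM in the null-labelled libraries and 139, 90.9 and 93.6 RPKM in the WT-labelled ones. Every WT library was well above all the others, and WT replicate 1 stood highest. Group means were 50.6 ± 7.22 and 108 ± 26.8 RPKM (SD, n = 3 each), 47.0% of the WT level (log2 fold change -1.06, SE 0.19, adjusted p = 0.0193 by limma). The call was lost with no intensity trend and without any single library other than WT replicate 2, and the adjusted p ran from 0.00952 to 0.0713 over the 15 alternatives.

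Mgst2, on chromosome 3 (51636912 to 51682675), which can make leukotriene C4, had 19.8, 19.2 and 18.1 RPKM against 46.8, 27.9 and 38.0 RPKM. The null-labelled libraries lay close together and the WT-labelled ones far apart. Group means were 19.0 ± 0.880 and 37.6 ± 9.47 RPKM (SD, n = 3 each), 50.7% of the WT level (log2 fold change -0.92, SE 0.19, adjusted p = 0.0383 by limma). This was the least firm of the 6 calls. It held in 6 of 15 alternatives, with adjusted p between 0.0277 and 0.149, and was lost without any single library other than WT replicate 2. Mgst3 had 8.84, 17.9 and 12.7 RPKM against 9.74, 5.66 and 13.3 RPKM, with overlap and a log2 fold change of 0.44 (SE 0.32, adjusted p = 0.547 by limma), which ran from 0.14 to 0.69 with 1 library left out. Summed over the 3 genes, the null-labelled libraries had 79.4 to 85.5 RPKM and the WT-labelled ones 125 to 195 RPKM.

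**Figure D2:**
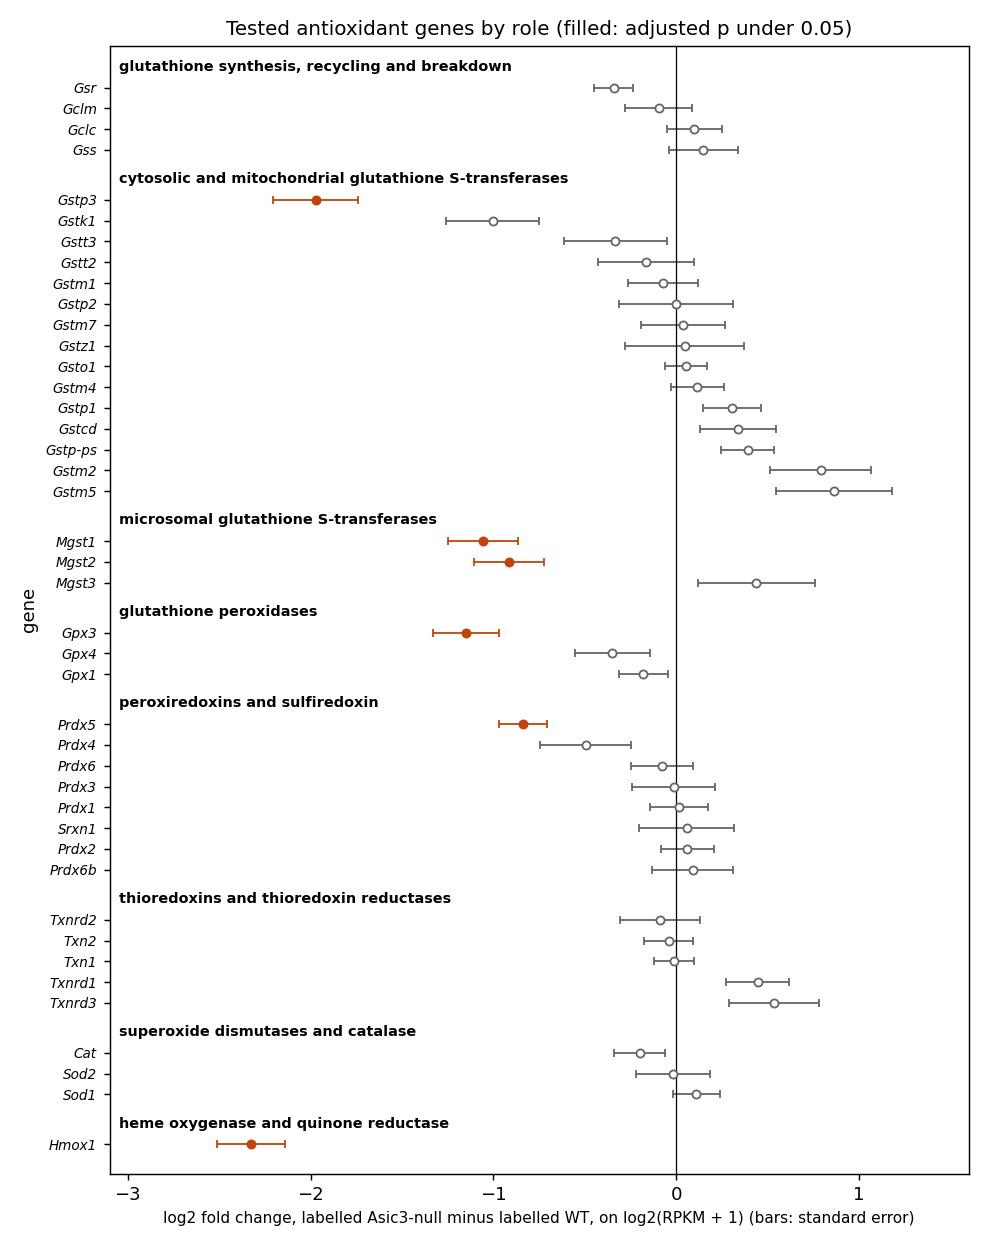
Log2 fold change (labelled Asic3-null minus labelled WT, on log2(RPKM + 1)) of each of the 42 tested genes, in blocks by role, with the standard error as bars. Filled points have an adjusted p under 0.05; the 6 filled points are all left of 0, from -2.33 for Hmox1 to -0.84 for Prdx5, and the open points run from -1.004 to 0.86.

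The glutathione peroxidases present were Gpx1, Gpx3 and Gpx4, and only Gpx3 was called. Gpx3, the secreted selenium-dependent peroxidase, lies on chromosome 11 (54902854 to 54910387). It had 26.4, 42.7 and 38.0 RPKM in the null-labelled libraries and 79.0, 80.3 and 77.4 RPKM in the WT-labelled ones. The WT libraries were nearly equal, and the highest of the others fell far short of them. Group means were 35.7 ± 8.42 and 78.9 ± 1.44 RPKM (SD, n = 3 each), 45.3% of the WT level (log2 fold change -1.15, SE 0.18, adjusted p = 0.0103 by limma). The call held in 13 of 15 alternatives, with adjusted p between 0.00309 and 0.0563, and was lost without WT replicate 1 or without WT replicate 2.

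Gpx1, the cytosolic peroxidase, was the most abundant gene of the 44. It had 1308, 1508 and 1284 RPKM against 1318, 1581 and 1762 RPKM. The groups overlapped, and the log2 fold change was -0.18 (SE 0.14, adjusted p = 0.562 by limma). Gpx4, which reduces lipid peroxides in membranes and guards against ferroptosis, had 38.8, 23.8 and 26.6 RPKM against 41.2, 31.2 and 40.4 RPKM, also with overlap (log2 fold change -0.35, SE 0.20, adjusted p = 0.440 by limma). Its RefSeq entry has several starts, and values per start are not given. Gpx2, Gpx5, Gpx6 and Gpx8 were at 0 in every library, and Gpx7 had 2 reads in all.

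The peroxiredoxins and sulfiredoxin gave 8 genes, of which Prdx5 was called. Prdx5, the peroxiredoxin of mitochondria, peroxisomes and cytosol, lies on chromosome 19 (6906697 to 6910106). It had 496, 588 and 501 RPKM in the null-labelled libraries and 1064, 955 and 826 RPKM in the WT-labelled ones. Of the called genes it was by far the most abundant, and its groups did not overlap. Group means were 528 ± 51.6 and 948 ± 119 RPKM (SD, n = 3 each), 55.7% of the WT level (log2 fold change -0.84, SE 0.13, adjusted p = 0.0107 by limma). The call held in 11 of 15 alternatives, with adjusted p between 0.00419 and 0.0642, and was lost on leaving out null replicate 1 or 3 or WT replicate 1 or 2. The ends of Prdx5 and Trmt112 overlap by 409 bases, and the libraries do not mark strand, so reads there cannot be assigned. Trmt112 had a mean of 50.4 RPKM.

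None of the others was called. The log2 fold changes of Prdx1, Prdx2, Prdx3, Prdx6, Prdx6b and Srxn1 lay between -0.08 and 0.09. Prdx6, the next most abundant, had 90.5, 130 and 100.5 RPKM against 98.0, 109 and 131 RPKM. Prdx4, the peroxiredoxin of the endoplasmic reticulum and the only X-linked gene of the 44, had 39.4, 21.5 and 27.1 RPKM against 31.7, 40.0 and 52.4 RPKM, with overlap (log2 fold change -0.50, SE 0.25, adjusted p = 0.370 by limma). Srxn1, sulfiredoxin, which restores overoxidized peroxiredoxins and is an NRF2 target, was low, with 1.67, 3.09 and 2.47 RPKM against 2.03, 2.39 and 2.29 RPKM.

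None of the 5 thioredoxin genes was called. Txn1, cytosolic thioredoxin, stood at 215, 224 and 209 RPKM against 205, 222 and 227 RPKM (log2 fold change -0.01, SE 0.11). Mitochondrial Txn2 had a log2 fold change of -0.04 (SE 0.14). Txnrd1, the cytosolic reductase, had 42.3, 47.8 and 36.0 RPKM against 29.9, 25.8 and 36.4 RPKM. WT replicate 3 just passed the lowest null-labelled library, and the log2 fold change of 0.45 (SE 0.17) had an adjusted p of 0.248 by limma. Txnrd3, known from testis, had 6.55, 10.95 and 7.51 RPKM against 4.02, 5.61 and 6.55 RPKM (log2 fold change 0.54, SE 0.25, adjusted p = 0.332 by limma), and the mitochondrial Txnrd2 had a log2 fold change of -0.09 (SE 0.22). Txnrd1 also overlaps Eid3 in part.

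Glutathione synthesis and recycling held 4 genes, and none was called. The ligase subunits Gclc and Gclm and the synthetase Gss had log2 fold changes of 0.10, -0.09 and 0.15, each smaller than its standard error. Gclc, the catalytic subunit, had 29.5, 24.6 and 28.7 RPKM against 29.0, 22.9 and 25.3 RPKM. Gsr, glutathione reductase, was far more abundant, at 494, 462 and 455 RPKM against 639, 572 and 578 RPKM. Its groups did not overlap, the null-labelled libraries had 78.8% of the WT mean, and it was not called (log2 fold change -0.34, SE 0.11, adjusted p = 0.151 by limma, called in none of 15 alternatives). Ggt1, which breaks glutathione down outside the cell, had 2 reads in all.

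Superoxide dismutases and catalase did not pass the test either. Sod1, which turns superoxide into peroxide in the cytosol, had 384, 372 and 312 RPKM against 305, 316 and 366 RPKM (log2 fold change 0.11, SE 0.13). Its mitochondrial counterpart Sod2 had a log2 fold change of -0.02 (SE 0.20). Cat, catalase, had 26.4, 31.8 and 31.9 RPKM against 34.5, 32.6 and 36.4 RPKM, every WT-labelled library slightly above the others (log2 fold change -0.20, SE 0.14, adjusted p = 0.530 by limma).

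A few genes made most of the message. Gpx1, Prdx5, Gsr, Sod1 and Gsto1 held 69.9% of the summed mean RPKM of the 44 genes. The sum over all 44 was 4205, 4686 and 4116 RPKM in the null-labelled libraries and 5023, 5150 and 5384 RPKM in the WT-labelled ones, without overlap. Without Prdx5 it was 3709, 4098 and 3616 RPKM against 3960, 4195 and 4558 RPKM, and the groups overlapped. For the 6 called genes alone the sum was 610, 702 and 627 RPKM against 1397, 1222 and 1088 RPKM. The choice of those genes fixes that direction.

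Within each label, many of the genes were highest in the same library. Of the 42 tested genes, 25 were highest in null replicate 2 among the libraries of that label, and 24 were highest in WT replicate 3 among those of the other label, where 34.7% and 31.0% of all tested genes were. The median SD of log2(RPKM + 1) within a label was 0.25 for the 42 genes and 0.24 for all tested genes.

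**Figure D3:**
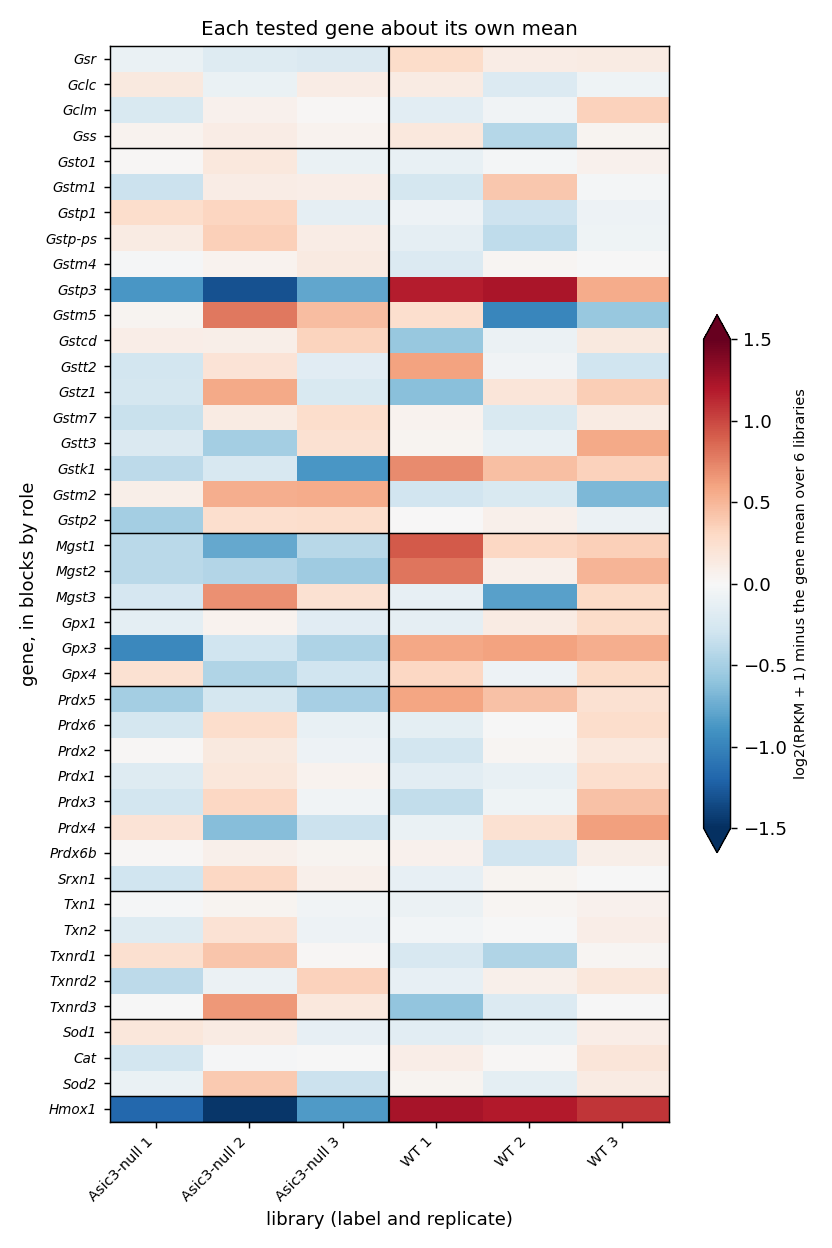
Colour map of log2(RPKM + 1) minus the gene's mean over the 6 libraries, for the 42 tested genes (rows, in blocks by role) and the 6 libraries (columns, the 3 null-labelled left of the line). Red is above and blue below the gene's own mean; the rows of Hmox1, Gstp3, Gpx3, Mgst1, Mgst2 and Prdx5 are blue on the left and red on the right, and most other rows are pale.

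Further genes of these pathways were taken as a list of 86, covering NRF2 control, cystine and glutathione transport, glutathione turnover, NADPH supply, glutaredoxins, repair, heme and metal handling, and selenoproteins and their synthesis. Of these, 74 were tested and 4 were called, 2 higher and 2 lower in the null-labelled libraries, and 14 had an unadjusted p under 0.05. These are 5.41% and 18.9% of the tested pathway genes, beside 3.35% and 15.9% of all tested genes. The median log2 fold change was 0.0045.

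NADPH supply held 2 of the calls, and they ran in opposite directions along the oxidative branch of the pentose phosphate pathway. Pgls, the lactonase of the middle step, had 515, 601 and 500 RPKM in the null-labelled libraries and 294, 284 and 330 RPKM in the WT-labelled ones. Every null-labelled library was above every WT library (log2 fold change 0.83, SE 0.12, adjusted p = 0.00748 by limma), and the call held in all 15 alternatives. Pgd, the dehydrogenase that follows it and makes NADPH, had 217, 264 and 234 RPKM against 321, 404 and 390 RPKM (log2 fold change -0.64, SE 0.13, adjusted p = 0.0383 by limma). Its call held in 7 of 15 alternatives, with adjusted p between 0.0179 and 0.146, and was lost without any single library other than WT replicate 1. G6pdx, the X-linked dehydrogenase that opens the pathway, had 43.6, 49.4 and 51.9 RPKM against 69.4, 67.3 and 70.6 RPKM, without overlap but not called (log2 fold change -0.51, SE 0.12, adjusted p = 0.0664 by limma). Its span lies across Ikbkg, so some reads may belong to that gene. Tkt and Taldo1 of the non-oxidative branch had log2 fold changes of 0.07 and -0.26.

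Heme handling held 1 call. Fech, ferrochelatase, which puts iron into heme and so completes its synthesis, had 66.8, 68.6 and 77.8 RPKM in the null-labelled libraries and 34.6, 37.9 and 36.5 RPKM in the WT-labelled ones. The groups were far apart, with Fech higher where Hmox1 was lower (log2 fold change 0.95, SE 0.13, adjusted p = 0.00513 by limma, called in all 15 alternatives). The second heme oxygenase, Hmox2, and the biliverdin reductases Blvra and Blvrb had log2 fold changes of -0.08, -0.22 and 0.26, and none was called. Erythroid markers were low, with the 10 listed genes summing to between 0.97 and 2.41 RPKM against 3.07 to 10.8 RPKM and Slc4a1 at 0. Fth1 and Ftl1, the ferritin subunits, had log2 fold changes of -0.16 and -0.15.

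**Figure D4:**
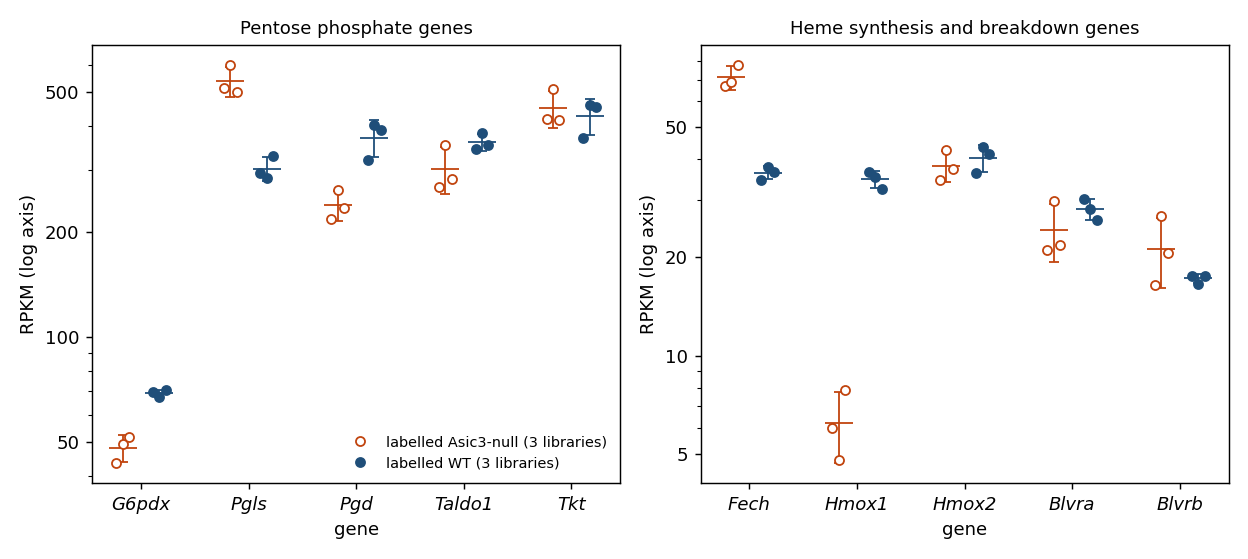
RPKM (log axis) in each library for genes of the pentose phosphate pathway (left) and of heme synthesis and breakdown (right). Open points are the 3 null-labelled libraries and filled points the 3 WT-labelled, with the mean as a bar and the SD as whiskers; Pgls and Fech are higher, and Pgd and Hmox1 lower, in the null-labelled libraries.

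Msrb1, a selenoprotein that repairs oxidized methionine, was the fourth call. It had 311, 327 and 318 RPKM against 568, 498 and 508 RPKM, with narrow groups and no overlap (log2 fold change -0.72, SE 0.11, adjusted p = 0.00852 by limma). The call held in 14 of 15 alternatives, with adjusted p between 0.00532 and 0.0514, and was lost without null replicate 3. None of the 6 tested genes of selenoprotein synthesis or of the 4 other selenoproteins Selenow, Selenoh, Selenok and Selenot was called by limma, and 0 of them had an unadjusted p under 0.05.

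The NRF2 regulators gave no call among 9 tested genes. Nfe2l2, which encodes NRF2, had 12.9, 10.5 and 15.2 RPKM against 12.3, 19.8 and 28.4 RPKM, with overlap and a wide spread among the WT-labelled libraries (log2 fold change -0.55, SE 0.28, adjusted p = 0.380 by limma). The log2 fold change was -0.84 without WT replicate 1 and -0.27 without WT replicate 3. Keap1 had 33.6, 32.9 and 28.9 RPKM against 29.9, 25.3 and 31.9 RPKM (log2 fold change 0.13, SE 0.15). Bach1, the heme-sensing repressor of Hmox1, had 11.4, 9.25 and 14.2 RPKM against 15.9, 16.2 and 12.3 RPKM, with overlap (log2 fold change -0.34, SE 0.20, adjusted p = 0.451 by limma). Slc7a11, the cystine carrier subunit and an NRF2 target, stayed at or under 0.227 RPKM in every library.

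Txnip, which binds and inhibits thioredoxin, had 204, 75.8 and 88.5 RPKM in the null-labelled libraries and 180, 222 and 154 RPKM in the WT-labelled ones. The lncRNA gene Gm15441, with a mean of 52.4 RPKM, overlaps Txnip by 3901 bases, so without strand their reads cannot be told apart. Null replicate 1 stood among the WT libraries, and the difference was not called (log2 fold change -0.72, SE 0.33, adjusted p = 0.332 by limma). Without that library it was called at an adjusted p of 0.0262, and over all alternatives the adjusted p ran from 0.0262 to 0.576.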

How the data were processed

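Total RNA of sorted YFP+Mac-1+c-Kit+ LICs was sequenced as 3 libraries per label, prepared so that strand is not marked. The submitters' processing notes name CASAVA 1.8.2, TopHat2 2.0.12 and GRCm38; the counting tool and gene annotation are not given in the sources used here. The authors deposited 1 table of RPKM values, by Entrez number, gene and library. Whole reads within 0.0001 reads lay behind the values of all 16825 genes above 0, which gave inferred library sizes; reads on genes were 99.6% of them. RefSeq for GRCm38.p6 gave symbols and positions (25275 genes) with 18 more from GENCODE M21, and 1886 genes had no symbol.

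Genes with a mean of at least 1 RPKM over the 6 libraries were tested on log2(RPKM + 1), which understates changes of low genes, with limma 3.58.1 (R 4.3.3), whose moderated test took an intensity trend and the label alone, and p values were adjusted over all tested genes by Benjamini and Hochberg's method. The steps were run on simulated data, but no result of that run is given here, so it lends the calls no weight. An exact two-sided permutation test of 3 against 3 cannot give a p under 0.10, which each called gene reached. The labels do not say whether the libraries came from separate mice, although the study describes its experiments in general as repeated biologically. The p values measure the spread between these libraries, which may be technical. No pair of libraries of one label agreed within sampling noise, and pairs between labels were not compared.

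The members and gene lists were chosen with earlier results of these data known. Values in every library are given for called members, the 20 tested members of lowest unadjusted p and the most abundant of each role; the pathway genes named are those called, the 5 of lowest p, and Nfe2l2, Keap1, Bach1, Slc7a11, G6pdx and Txnip. Gclc, Gstm1, Prdx6, Srxn1 and the other pathway genes named were added for their roles after their values were seen. Steps in Python 3.11.15 used pandas 2.3.3 and matplotlib 3.10.9.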

Additional observations from a re-analysis of the deposited data

How the results depend on the processing

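Alternatives were a pseudocount of 0.1, limits of 0.5 or 5 RPKM or none in place of 1, no intensity trend, median-ratio or quantile scaling of the libraries, limma-voom on the inferred reads, the replicate number as a block, and each library left out in turn. None of the 6 called members or the 4 called pathway genes changed direction under any of these. Of the 42 tested members, 24 kept their direction throughout and 18 did not, and of 19 pathway genes followed, which did not include Selenow, Selenoh, Selenok and Selenot, Tkt changed. All 19 changed genes were uncalled, with log2 fold changes of at most 0.16 either way. With 1 library left out, their log2 fold changes ran from -0.029 to 0.27 for Gss, -0.36 to 0.099 for Gstt2, -0.19 to 0.055 for Gclm, -0.0115 to 0.12 for Gsto1, -0.23 to 0.036 for Prdx6, -0.062 to 0.15 for Prdx2, -0.031 to 0.15 for Prdx6b, -0.28 to 0.087 for Txnrd2, -0.22 to 0.11 for Gstm1 and -0.16 to 0.048 for Txn2. They ran from -0.084 to 0.22 for Srxn1, -0.087 to 0.21 for Gstm7, -0.25 to 0.25 for Gstz1, -0.057 to 0.020 for Txn1, -0.066 to 0.14 for Prdx1, -0.22 to 0.14 for Sod2, -0.20 to 0.20 for Prdx3, -0.13 to 0.26 for Gstp2 and -0.028 to 0.13 for Tkt. With quantile scaling, those of Txn1 and Gstp2 became 0.034 and 0.14. Of the genes that kept their direction, leaving out 1 library moved the log2 fold change by over 1.5 times for 0 of the 10 called and 20 of the 32 uncalled, among them Mgst3 (0.14 to 0.69), Prdx4 (-0.72 to -0.30), Gpx4 (-0.55 to -0.21), Gstcd (0.14 to 0.50), Gstt3 (-0.53 to -0.13) and Txnip (-1.15 to -0.44). Of the antioxidant genes, 6 were called and all were lower. With 1 library left out the count lay between 2 (without WT replicate 1) and 4, with 3 each without Asic3-null replicate 1 or 3. With no intensity trend 4 were called, and with no filter or limma-voom 5. The 4 pathway calls became 2 (without Asic3-null replicate 3) to 4 with 1 library left out, 3 with no filter or no intensity trend, and 5 with limma-voom, which added Abcc5. The median log2 fold change of the members ran from -0.14 to 0.056 with 1 library left out. Replicate numbers are shared between the labels. Same-numbered libraries deviated from their group means with correlations of 0.059, -0.059 and -0.12, and differently numbered ones with -0.073 to 0.141. With 3 libraries per label, these values cannot decide whether the numbers pair the libraries. With the replicate number as a block, 5 antioxidant genes (not Mgst2) and 3 pathway genes (not Pgd) were called. Depth limits the low genes: Nqo1, Gsta4, Ggt5 and Gsto2 had 7 to 25 reads each in all.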

Other observations

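Ggt5, a gamma-glutamyl transferase that cleaves glutathione conjugates and leukotriene C4, fell under the limit of 0.5 RPKM but was unequal between the labels. It had 1, 3 and 1 reads in the null-labelled libraries and 10, 4 and 6 reads in the WT-labelled ones, without overlap. It was noticed after its values were seen and was not tested.

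After the called pathway genes and G6pdx, Cndp2 and Abcc5 came next by unadjusted p. Both were lower in every null-labelled library and were not called. Cndp2, a peptidase that splits the cysteinyl-glycine left by glutathione breakdown, had 55.0, 51.8 and 50.04 RPKM against 64.7, 71.6 and 75.0 RPKM (log2 fold change -0.42, adjusted p = 0.125 by limma). Abcc5, an exporter of organic anions, had 3.35, 3.59 and 3.57 RPKM against 6.83, 5.80 and 5.73 RPKM (log2 fold change -0.66, adjusted p = 0.131 by limma), and limma-voom on the inferred reads called it. Nfe2l1, which encodes NRF1, a relative of NRF2, ran the other way at 33.5, 33.8 and 32.1 RPKM against 20.4, 21.7 and 27.8 RPKM, without overlap and not called (log2 fold change 0.50, adjusted p = 0.147 by limma).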
